A study of Homo sapiens with 12 samples.

Results

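Translation initiation and elongation factors are the proteins that bring a messenger RNA, the initiator tRNA and the ribosome together and then deliver each further amino acid. The genes described here are those whose symbol starts with EIF and a digit from 1 to 6, or with EEF1 or EEF2 followed by A, B, D or G, leaving out EEF1E1, a scaffold of tRNA synthetases. Each gene was read from its probe set with a single gene symbol and the highest mean signal. The rule found 48 genes among the 11963 named on the array, and 47 of them were among the 7178 genes bright enough to be tested. The 48th, EEF1AKMT2, had signals between 1.9 and 10.3 on all 12 arrays. The Y-linked EIF1AY is counted among the 47 and its level is not given. The factor genes EEF1B2, EEF1G, EIF3C, EIF3CL, EIF4A1, EIF4A2 and EIF4EBP3, 7 in all, are covered only by probe sets that carry several gene symbols and were not analysed here. EEF2, the translocation factor, lies outside the rule's letters.

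Expression was profiled on 12 arrays from 5 melanoma cell lines that all carry the BRAF V600E mutation, which keeps the RAF, MEK and ERK kinase cascade active. Malme3M, SkMel-28, SkMel-19, SkMel-5 and SkMel-1 were treated for 8 h with 250 nM PLX4032 (vemurafenib), a small-molecule RAF inhibitor, or with its solvent DMSO at 0.1% as control. Malme3M and SkMel-19 additionally received 1000 nM. Each line has 1 array at each dose it received, and no line without the mutation is among them. The lines are therefore the replicates, and a p-value measures only how far the response was shared between lines. In what follows, lists of 5 values start with SkMel-1, followed by SkMel-5, then SkMel-28, then SkMel-19, with Malme3M last.

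Initiation in human cells starts at the cap of the messenger RNA, which eIF4E binds. eIF4G joins eIF4E to the helicase eIF4A and, through eIF3, to the small ribosomal subunit, which carries the initiator tRNA on eIF2. The kinase mTOR controls the step through the 4E-binding proteins, which block eIF4E until they are phosphorylated, and ERK acts on it through the MNK kinases, which phosphorylate eIF4E. eIF2 is recharged with GTP by eIF2B, and stress kinases stop that exchange by phosphorylating the alpha subunit. These controls work on proteins, and the arrays measured transcripts.

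Every array had been scaled to nearly the same trimmed mean (500.128 to 500.145), so a signal is a share of an array and a change in total RNA per cell is not visible. Array medians were 102.5 to 130.4. All 46 factors described by level were at or above a signal of 85.7, the mean level used as the filter, on all 12 arrays. The 5 transcripts known to follow ERK activity that were checked, among them DUSP6 and MYC, all fell in the treated arrays. Melanocyte markers reached the filter on at least 1 array for 7 of 7 genes with a probe set, with sums of 41528 to 65657 at 250 nM and 31538 to 61474 in DMSO, although TYRP1 was near 20 in SkMel-1. Blood cell markers reached it for 0 of 4, fibroblast markers for 4 of 7 and epithelial markers for 1 of 4 (CDH1). The log2 ratio of 3' to 5' control probe sets, a sign of RNA quality, changed by -0.01 ± 0.07 for GAPDH and by -0.02 ± 0.08 for ACTB (250 nM minus DMSO, SD, n = 5 lines).

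At 250 nM, 12 of the 47 factors changed, and all 12 were lower in the treated cells. They were EIF4E, EIF3J, EIF2S1, EIF2B2, EIF4G1, EIF2B3, EIF5B, EIF1AX, EIF6, EIF3B, EIF3D and EIF3M, and the falls lay between 1.19-fold for EIF3M and 1.49-fold for EIF4E. The call is limma's moderated test on log2(signal + 12) with the cell line as a block and Benjamini-Hochberg adjusted p under 0.05 over all 7178 genes, and every fold change below is on that scale. By this test 25.5% of the factors were called, against 28.3% of all genes tested. All genes split into 15.2% higher and 13.1% lower, while of the factors 0 were higher at an adjusted p. At an unadjusted p under 0.05 in either direction there were 18 of the 47 factors, against 2970 of the 7178 genes. Of those 18 factors, 13 were lower and 5 higher (EEF1A2, EIF1, EIF2AK1, EIF2D and EIF4B). The median log2 fold change was -0.04 over the 47 factors and 0.03 over all genes. Because the signals come from whole cultures, fewer cells of a kind and less RNA per cell cannot be told apart. The count of 12 became 7 without SkMel-28, without SkMel-19 or without Malme3M, 10 without SkMel-1 and 11 without SkMel-5. Without SkMel-1 the calls of EIF2B3, EIF3D and EIF6 were lost, so those 10 include a factor that is not among the 12. It was 5 of 31 tested when probe sets with a name ending in _x_at or _s_at, the maker's marks for probes that can match several transcripts, were left out.

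**Figure D1:**
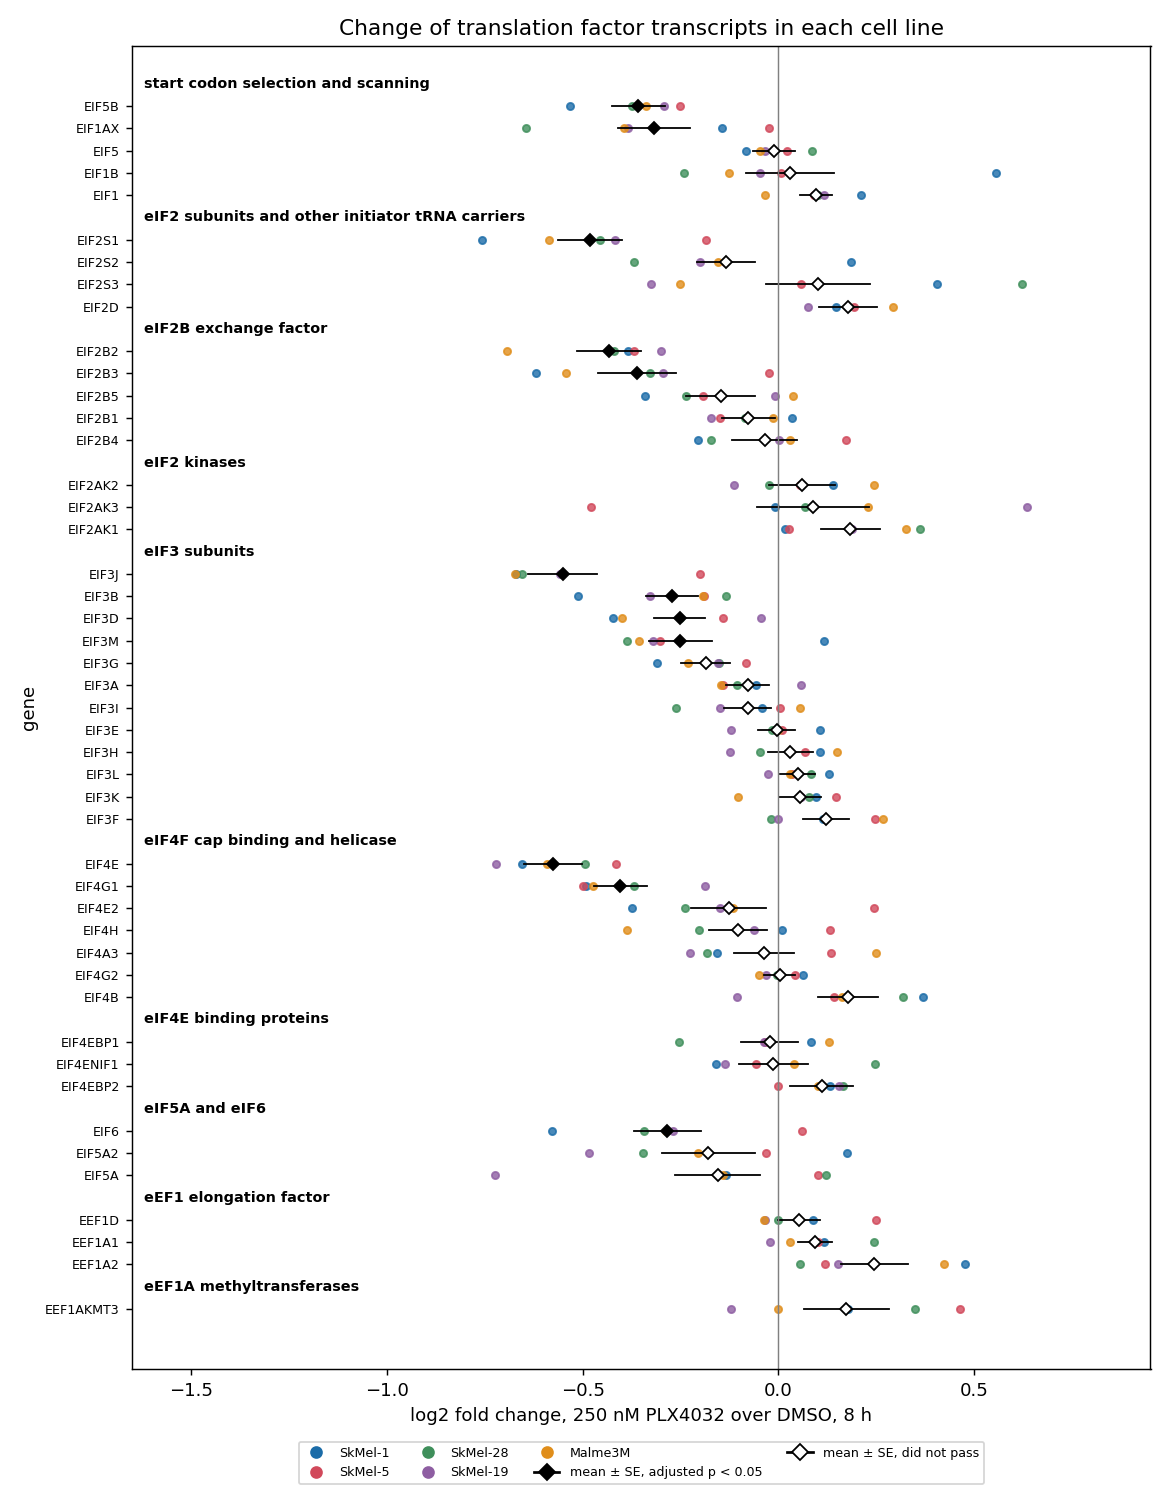
Log2 fold change of 46 translation factor genes, 250 nM PLX4032 over DMSO, grouped by role. Coloured points are the 5 cell lines and diamonds are the mean ± SE of the fit, filled where the adjusted p passed. The 12 filled diamonds all lie left of 0, between -0.57 (EIF4E) and -0.25 (EIF3M), and most open diamonds lie close to 0.

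Factors that were lower in every line outnumbered those that were higher in every line. Of the 47 factors, 11 (23.4%) were lower in all 5 lines, against 16.6% of all genes, and 3 (6.38%) were higher in all 5, against 20.9% of all genes. The 3 that were higher in every line were EEF1A2, EIF2AK1 and EIF2D, and none of them passed the test. Among the 12 called genes the median change was -0.52 in SkMel-1, -0.19 in SkMel-5, -0.38 in SkMel-28, -0.31 in SkMel-19 and -0.44 in Malme3M. SkMel-5 thus had the smallest median of the 5 lines over these 12 genes, which were chosen by the same arrays.

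**Figure D2:**
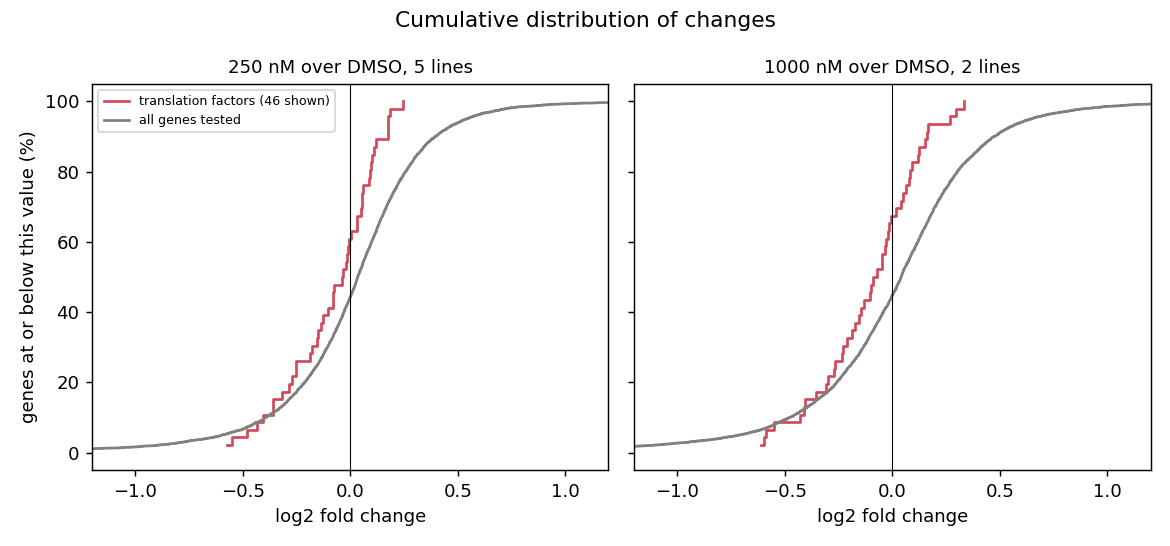
Cumulative share of genes (y axis, percent) at or below a log2 fold change (x axis) for 46 translation factors (red) and all genes tested (grey), at 250 nM over DMSO in 5 lines (left) and 1000 nM over DMSO in 2 lines (right). The red curve is narrower than the grey one and lies to its left around 0, with medians over the 46 of -0.04 against 0.03 at 250 nM and -0.08 against 0.04 at 1000 nM.

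The group of eIF4F genes and their cap-binding and helicase relatives held the factor with the largest fall. It includes EIF4A3, while EIF4A1 and EIF4A2 were not analysed. EIF4E, the cap-binding protein, had signals of 1132, 807, 1307, 977 and 939.6 at 250 nM, against 1789, 1079.7, 1844, 1617 and 1421 in DMSO. The treated value was the lower one in each line, although the groups overlap because DMSO-treated SkMel-5 lay below 2 of the treated arrays of other lines. The log2 fold change was -0.57 (SE 0.07, adjusted p = 0.0011), a 1.49-fold fall. EIF4G1, the scaffold that joins EIF4E to the rest of the complex, had 1347, 2149, 2355, 2232 and 1716 at 250 nM, against 1897, 3041, 3045, 2543 and 2388 in DMSO. It was lower in 5 of 5 lines, least in SkMel-19 (-0.19), and the groups overlapped since the lines differ in their level. Its log2 fold change was -0.40 (SE 0.07, adjusted p = 0.00355). The other 5 members tested did not pass, with log2 fold changes from -0.13 for EIF4E2, a cap-binding relative of EIF4E, to 0.18 for EIF4B, a helper of the helicase. EIF4G2, a relative of EIF4G1 that lacks the EIF4E binding site, had a log2 fold change of 0.00 (SE 0.04).

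The promoters of EIF4E and EIF4G1 are shown because both hold copies of the E-box CACGTG, a motif bound by MYC. The windows are the 250 bases before the first listed RefSeq start (GRCh38.p14), 5′ to 3′ on the gene's strand, with the motif in capitals, for EIF4E at chr4:98929134-98929383, minus strand, and for EIF4G1 at chr3:184314356-184314605, plus strand.
EIF4E: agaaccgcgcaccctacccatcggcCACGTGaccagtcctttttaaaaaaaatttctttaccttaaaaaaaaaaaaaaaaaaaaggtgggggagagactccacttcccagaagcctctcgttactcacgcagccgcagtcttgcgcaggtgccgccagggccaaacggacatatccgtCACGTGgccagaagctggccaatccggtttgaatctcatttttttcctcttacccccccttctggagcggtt
EIF4G1: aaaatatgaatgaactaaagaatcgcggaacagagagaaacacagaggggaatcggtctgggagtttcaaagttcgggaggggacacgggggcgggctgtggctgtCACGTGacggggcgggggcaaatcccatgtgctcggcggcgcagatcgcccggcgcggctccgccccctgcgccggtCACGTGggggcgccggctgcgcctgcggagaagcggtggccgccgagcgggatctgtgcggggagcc
The first base of the motif lies at -225 and -72 from the start in EIF4E and at -144 and -67 in EIF4G1. Motifs were counted in these same 250 bases in every gene. Of the 37 factors with a promoter entry, 11 (29.7%) held CACGTG, which reads the same on both strands, against 9.44% of the 6058 genes tested that had an entry and 6.49% of all 27305 promoters in the table. The motif was found in 3 of the 12 factors that fell (25%) and in 8 of the other 25 (32%). A match is a string of letters and not a measured binding site. The promoters of EEF1A2, EEF1AKMT3, EEF1D, EIF2AK1, EIF2S2, EIF3A, EIF3E, EIF3G, EIF3H, EIF3L and EIF4EBP1 were not matched.

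Of the 3 genes whose proteins bind EIF4E and hold it back or carry it, 0 passed limma's test and 0 had an unadjusted p under 0.05. EIF4EBP1, the best known 4E-binding protein, had 1559, 1428, 2626, 2093 and 2001 at 250 nM, against 1469.5, 1464, 3131, 2146 and 1828 in DMSO. It was lower in 3 lines and higher in SkMel-1 and Malme3M, and the log2 fold change was -0.02 (SE 0.07, adjusted p = 0.844), with a 95% interval of -0.19 to 0.14. EIF4EBP2 had 439.9, 448, 327, 745 and 500.1 at 250 nM, against 400.2, 448, 291, 668 and 466 in DMSO, and a log2 fold change of 0.11 (SE 0.08, adjusted p = 0.331) with an interval of -0.07 to 0.29. EIF4ENIF1, which carries EIF4E into the nucleus, was at -0.01. The difference between the change of EIF4E and that of EIF4EBP1 was -0.55 ± 0.23 (SD, n = 5 lines), and between EIF4E and EIF4EBP2 it was -0.68 ± 0.17. Both differences were below 0 in 5 of 5 lines. They are given without a test because the pairs were chosen with the changes known.

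Of the 4 eIF2 subunits and other carriers of the initiator tRNA, 1 fell. EIF2S1 encodes the alpha subunit of eIF2, the one that stress kinases phosphorylate, and had 1965, 2984, 2484, 2442 and 2145 at 250 nM, against 3328, 3397, 3411, 3267 and 3223 in DMSO. Every treated array lay below every DMSO array. The DMSO levels were also the tightest of all the factors, with the highest line 1.06 times the lowest. The log2 fold change was -0.48 (SE 0.08, adjusted p = 0.00359), a 1.40-fold fall, largest in SkMel-1 (-0.76) and smallest in SkMel-5 (-0.19). EIF2S2, the beta subunit, was at -0.13 (adjusted p = 0.198).

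EIF2S3, the gamma subunit that binds the tRNA and GTP, had changes of opposite sign between lines. Its signals were 3518, 2097, 2044, 4383 and 2032 at 250 nM, against 2657, 2015, 1324, 5498 and 2421 in DMSO. It was higher in SkMel-1, SkMel-5 and SkMel-28 and lower in SkMel-19 and Malme3M, with log2 fold changes from -0.33 in SkMel-19 to 0.62 in SkMel-28. The mean was 0.10 (SE 0.13, adjusted p = 0.596), and it was -0.03 without SkMel-28. The change of EIF2S1 minus that of EIF2S2 was -0.35 ± 0.37, and minus that of EIF2S3 it was -0.58 ± 0.50 (SD, n = 5 lines), below 0 in 5 of 5 lines each. These pairs too were chosen with the changes known and were not tested. EIF2D, which can deliver the initiator tRNA without eIF2, was at 0.18 (adjusted p = 0.105) and above 0 in 5 of 5 lines.

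Of the 5 subunits of eIF2B, the factor that recharges eIF2, 2 fell. EIF2B2, the beta subunit, had 787, 792, 826, 1065 and 626 at 250 nM, against 1030.3, 1027, 1109, 1314 and 1019 in DMSO. The treated array was lower in each line, and only treated SkMel-19 lay within the DMSO range. Its log2 fold change was -0.43 (SE 0.08, adjusted p = 0.00578), with the largest change in Malme3M (-0.69). EIF2B3, the gamma subunit, had 419, 712, 919.6, 1456 and 382 at 250 nM, against 649, 724, 1157, 1790.3 and 561 in DMSO. It was lower in 5 of 5 lines, but in SkMel-5 by only -0.02, and its log2 fold change was -0.36 (SE 0.10, adjusted p = 0.0258). This call was lost when SkMel-1, SkMel-28, SkMel-19 or Malme3M was left out (adjusted p = 0.0645 to 0.0770). EIF2B1, EIF2B4 and EIF2B5 did not pass and lay between -0.15 and -0.04. The promoter of EIF2B3 (chr1:44986596-44986845, minus strand, GRCh38.p14, 250 bases before the start) is the third among the genes that fell with CACGTG, at -179.
EIF2B3: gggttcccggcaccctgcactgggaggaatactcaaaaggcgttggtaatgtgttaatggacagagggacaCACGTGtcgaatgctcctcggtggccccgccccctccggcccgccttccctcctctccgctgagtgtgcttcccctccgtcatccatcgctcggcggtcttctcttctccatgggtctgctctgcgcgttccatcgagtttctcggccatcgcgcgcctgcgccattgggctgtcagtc

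None of the 3 eIF2 kinases measured passed the test. EIF2AK3 (PERK), the kinase of the endoplasmic reticulum stress response, had 307, 250.2, 497, 390.0 and 721 at 250 nM, against 309, 354, 473, 247 and 614 in DMSO. It was higher in SkMel-28, SkMel-19 and Malme3M and lower in SkMel-5 and, by -0.01, in SkMel-1. The mean log2 fold change was 0.09 (SE 0.14, adjusted p = 0.673), and without SkMel-19 it was -0.05. EIF2AK1, the kinase first described as responding to heme, was above 0 in 5 of 5 lines with a log2 fold change of 0.18 (SE 0.08, adjusted p = 0.0979), and EIF2AK2 (PKR), which senses double-stranded RNA, was at 0.06. At an unadjusted p under 0.05, 1 of the 3 (EIF2AK1) was called.

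Of the 12 eIF3 subunits tested, 4 fell. EIF3J, a loosely bound subunit that acts on binding of the messenger RNA, had 1203, 873, 945, 995 and 1107 at 250 nM, against 1922, 1004, 1495.1, 1470.4 and 1771 in DMSO. SkMel-5 was the lowest line in both groups and changed by -0.20, while the other 4 lines lay between -0.67 and -0.56, and the groups overlapped through that line's DMSO array. The log2 fold change was -0.55 (SE 0.09, adjusted p = 0.00284), a 1.47-fold fall. EIF3B, a core scaffold subunit, had 2722, 4683, 3714, 2385 and 3434 at 250 nM, against 3889, 5339.7, 4077, 2999.6 and 3926 in DMSO, lower in 5 of 5 lines, and its log2 fold change was -0.27 (SE 0.07, adjusted p = 0.0167). EIF3D, a subunit that can itself bind the cap, had 3527, 6115, 4948, 5118 and 3091 at 250 nM, against 4733, 6745, 5897, 5278 and 4082 in DMSO. It too was lower in 5 of 5 lines, least in SkMel-19 (-0.04), and its log2 fold change was -0.25 (SE 0.07, adjusted p = 0.0211). EIF3M was lower in 4 of 5 lines, with 0.12 in SkMel-1, and its log2 fold change was -0.25 (SE 0.08, adjusted p = 0.0441). Leaving out single lines ended the calls of EIF3B (without SkMel-19, adjusted p = 0.0550), of EIF3D (without SkMel-1, SkMel-28 or Malme3M, 0.0585 to 0.0702) and of EIF3M (without SkMel-5, SkMel-28, SkMel-19 or Malme3M, 0.0983 to 0.134).

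The other 8 eIF3 subunits lay between -0.19 (EIF3G, adjusted p = 0.0518) and 0.12 (EIF3F). EIF3A, the largest subunit and a scaffold of the complex, had 3123, 2839, 3281, 4732 and 3331 at 250 nM, against 3253, 3132, 3532, 4549 and 3688 in DMSO, and SkMel-19 was the highest line in both groups. Its log2 fold change was -0.08 (SE 0.05, adjusted p = 0.308). The change of EIF3J minus that of EIF3A was -0.47 ± 0.23 (SD, n = 5 lines), below 0 in 5 of 5 lines, a pair likewise given without a test. EIF3L had 6895, 5938, 8449, 6135 and 5704 at 250 nM, against 6309, 5799.9, 7978, 6255 and 5592 in DMSO, with a log2 fold change of 0.05 (SE 0.04, adjusted p = 0.428).

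The promoter of EIF3J (chr15:44536897-44537146, plus strand, GRCh38.p14, 250 bases before the start) is shown because it is the only one among the 37 matched factors with TGACTCA or its reverse complement TGAGTCA, the motif of AP-1, a transcription factor family downstream of ERK. The motif, in capitals, starts at -20.
EIF3J: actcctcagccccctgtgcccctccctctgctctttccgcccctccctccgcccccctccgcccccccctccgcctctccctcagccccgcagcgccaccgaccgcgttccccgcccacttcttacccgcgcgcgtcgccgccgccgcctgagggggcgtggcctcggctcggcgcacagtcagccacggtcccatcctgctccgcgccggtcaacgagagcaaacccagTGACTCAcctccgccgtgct
The motif was found in 1 of the 37 factors (2.70%), against 2.20% of promoters of the genes tested and 4.16% of all promoters. The ETS motif CCGGAAG or its reverse complement CTTCCGG was found in 7 of the 37 factors (18.9%), against 17.2% of the genes tested and 8.82% of all promoters. These were 2 of the 12 that fell (16.7%), EIF3M (at -41) and EIF6 (at -101), and 5 of the other 25 (20%).

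Of the 6 factors of scanning and start codon selection, 2 fell. EIF5B, the GTPase that joins the large ribosomal subunit, had 1316, 1079, 2466, 1476 and 1458 at 250 nM, against 1909.6, 1287, 3199, 1810.4 and 1846 in DMSO. SkMel-28 stood above the other lines in both groups, and the treated value was the lower in 5 of 5 lines. Its log2 fold change was -0.36 (SE 0.07, adjusted p = 0.00596). EIF1AX, which helps the small subunit scan for the start codon, had 1858, 1315, 1716, 2658 and 1538 at 250 nM, against 2056, 1338, 2688, 3475 and 2025 in DMSO. SkMel-5 hardly differed (-0.02) and SkMel-28 differed most (-0.64). The log2 fold change was -0.32 (SE 0.09, adjusted p = 0.031), a call that was lost without SkMel-28, SkMel-19 or Malme3M (adjusted p = 0.0831 to 0.0992). EIF1, EIF1B and EIF5, which guard the choice of start codon, did not pass and lay between -0.01 and 0.10.

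EIF6, which keeps the large and small ribosomal subunits apart and takes part in making the large one, had 2159, 3173, 2236, 2876 and 1562 at 250 nM, against 3231, 3042, 2840.4, 3471 and 1907 in DMSO. It was lower in 4 lines and higher by 0.06 in SkMel-5, and its log2 fold change was -0.28 (SE 0.09, adjusted p = 0.0379). The call was lost without SkMel-1, SkMel-28, SkMel-19 or Malme3M (adjusted p = 0.0831 to 0.108). EIF5A, the hypusine-bearing factor that keeps ribosomes moving at difficult stretches, had 9497, 5863, 3029, 4002 and 8816 at 250 nM, against 10419, 5467, 2783, 6619 and 9729 in DMSO. SkMel-19 changed by -0.72, and the other lines lay between -0.14 and 0.12. The mean was -0.16 (SE 0.11, adjusted p = 0.312). EIF5A2, its paralog, was at -0.18 (adjusted p = 0.283).

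No eEF1 elongation factor passed the test in either direction at 250 nM, and 1 of the 3 was called at an unadjusted p under 0.05 (EEF1A2). EEF1A1, which brings aminoacyl-tRNAs to the ribosome, had 14862, 14092, 17139.5, 15930.3 and 13052 at 250 nM, against 13706, 13148, 14467, 16164 and 12798 in DMSO. Its log2 fold change was 0.09 (SE 0.04, adjusted p = 0.13), with a 95% interval of -0.0026 to 0.19. EEF1A2, the form otherwise known from muscle and neurons, had 3756, 1780.0, 156, 936 and 4365 at 250 nM, against 2698, 1639, 149.7, 841 and 3253 in DMSO. It was higher in 5 of 5 lines, with log2 fold changes of 0.48, 0.12, 0.06, 0.15 and 0.42. The mean was 0.24 (SE 0.09, adjusted p = 0.0599), just short of the threshold, and it passed (adjusted p = 0.0389) when all 12 arrays were fitted together. EEF1D, an exchange factor for EEF1A, was at 0.05, and EEF1AKMT3, a methyltransferase that modifies EEF1A, was at 0.17, and neither passed.

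**Figure D3:**
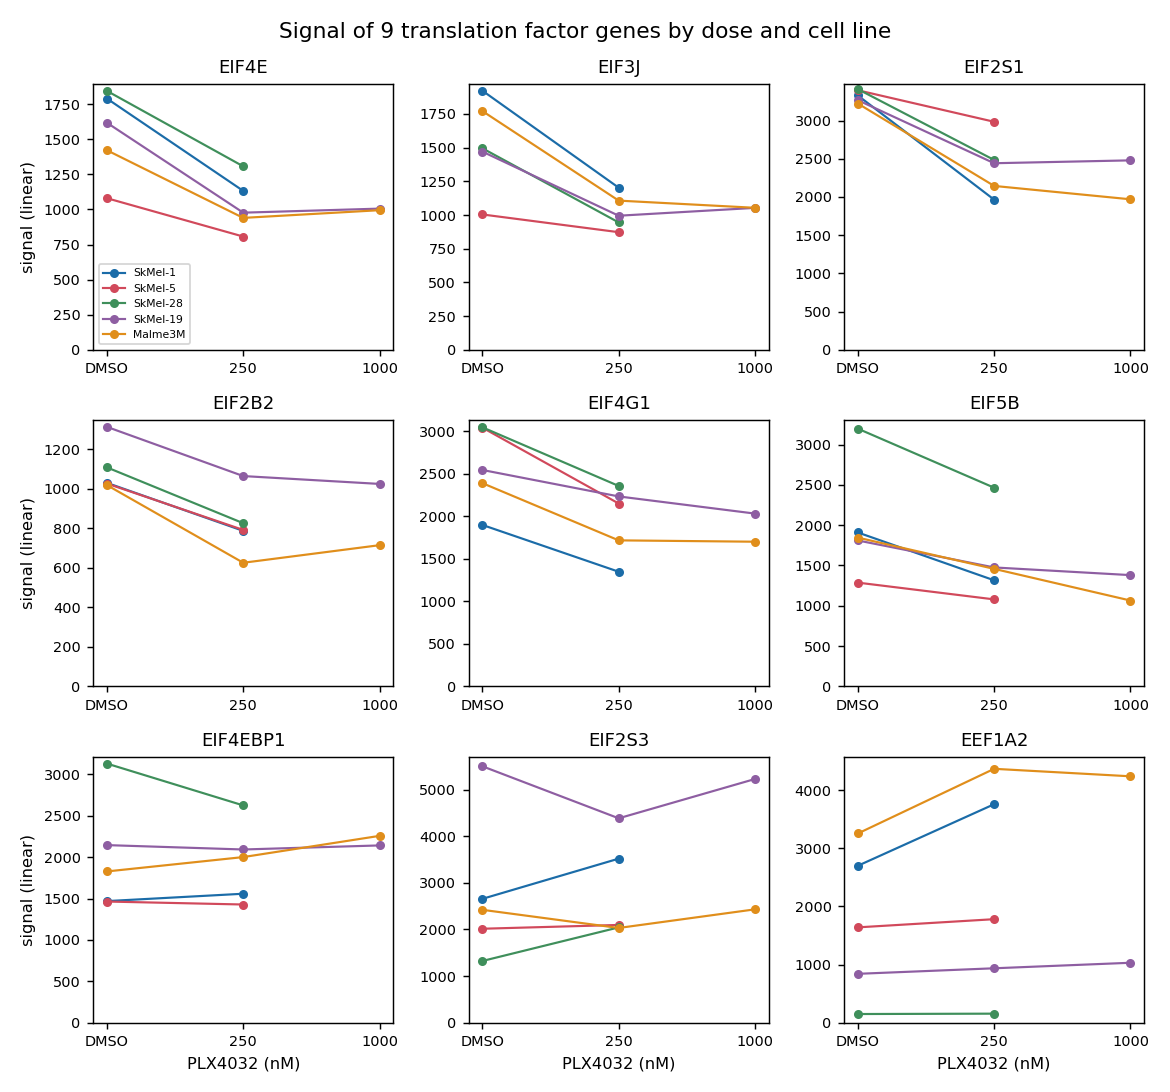
Signal (linear scale, from 0) of 9 translation factor genes in DMSO, at 250 nM and at 1000 nM PLX4032, with a line for each of the 5 cell lines and 1000 nM only for SkMel-19 and Malme3M. EIF4E, EIF3J, EIF2S1, EIF2B2, EIF4G1 and EIF5B are lower at 250 nM than in DMSO in every line, EIF4EBP1 and EIF2S3 differ in direction between lines, and EEF1A2 is higher in every line over a wide range of levels.

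Most factors that changed had more than 1 probe set, which gives a second reading of the same arrays. Of the 12 genes that fell, 8 had 16 further probe sets above the filter, and all 16 had a log2 fold change below 0, from -0.71 to -0.26. The other 4 had a single probe set. The probe sets of EIF4E gave -0.57, -0.64 and -0.71, those of EIF2S1 -0.48, -0.70 and -0.36, and those of EIF1AX -0.32, -0.31, -0.28 and -0.56. The signal used for EIF3B and EIF5B comes from a probe set whose name ends in _x_at. For EIF5B the 2 probe sets ending in neither _x_at nor _s_at gave -0.26 and -0.40 at 250 nM, and with the brighter of them, at -0.26, in place of the one used, EIF5B did not pass (adjusted p = 0.135). Over all factors, 11 of 45 further probe sets had the opposite sign from the one used.

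**Figure D4:**
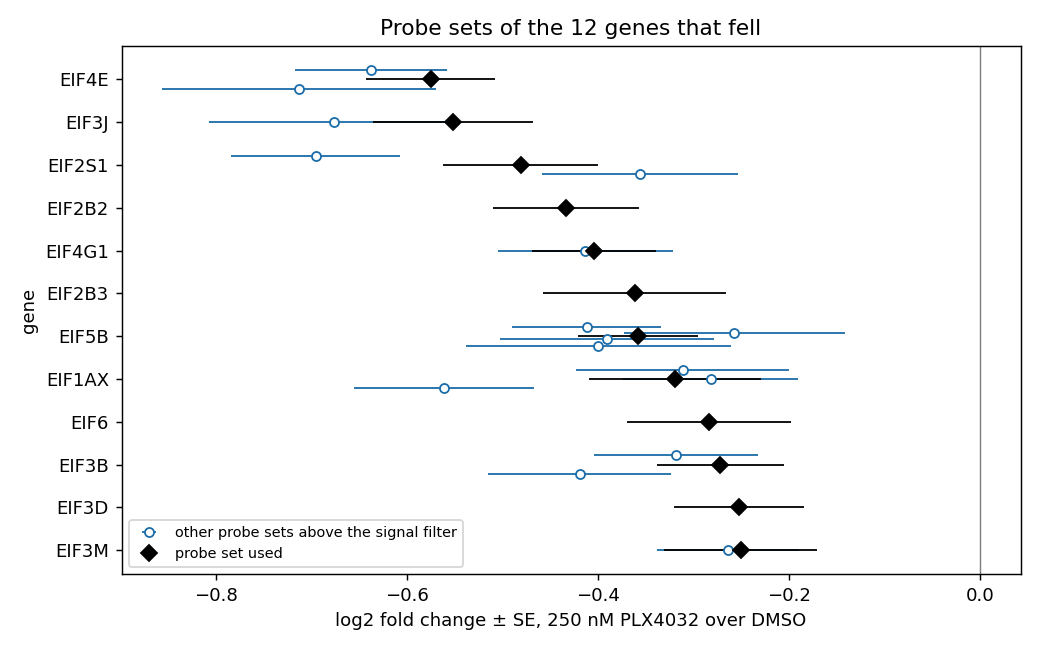
Log2 fold change ± SE at 250 nM over DMSO for each probe set above the signal filter of the 12 genes that fell. Filled diamonds are the probe sets used and open circles the 16 others, and all lie left of 0.

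At 1000 nM in SkMel-19 and Malme3M, 4 of 47 factors changed and all 4 fell. This is 8.51% of the factors, against 11.2% of all genes, of which 5.89% were lower and 5.29% higher. EIF3J had 1470.4, 995 and 1053 in SkMel-19 and 1771, 1107 and 1054 in Malme3M (DMSO, 250 nM and 1000 nM), and its log2 fold change at 1000 nM was -0.61 (SE 0.11, adjusted p = 0.0248). EIF4E had 1617, 977 and 1006 in SkMel-19 and 1421, 939.6 and 994 in Malme3M in the same dose order, with -0.59 (SE 0.10, adjusted p = 0.0224). For both genes the 1000 nM value stood close to the 250 nM value in each line. EIF2S1 had 3267, 2442 and 2479 in SkMel-19 and 3223, 2145 and 1969.7 in Malme3M, with -0.55 (SE 0.10, adjusted p = 0.0251). EIF5B had 1810.4, 1476 and 1380.3 in SkMel-19 and 1846, 1458 and 1065 in Malme3M, with -0.59 (SE 0.13, adjusted p = 0.0406). The EIF5B value depended on the probe set, since the others gave -0.51, -0.45, -0.43 and -0.15 at this dose. No factor was higher at an adjusted p. At an unadjusted limma p under 0.05 in either direction there were 13 of the 47 factors, against 2313 of the 7178 genes. Of those 13 factors, 10 were lower and 3 higher (EEF1A1, EEF1A2 and EIF3L). The fit has 6 arrays of 2 lines, so leaving out a line leaves no test. The count of 4 was 2 with no trend in the prior variance and 1 without probe sets ending in _x_at or _s_at.

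The other 6 of the 10 largest falls at 250 nM among called factors lower in all 5 lines did not pass at 1000 nM. Their values at that dose were lower than in DMSO in both lines. EIF4G1 had 2030.2 in SkMel-19 and 1699.6 in Malme3M at 1000 nM, against 2543 and 2388 in DMSO, a log2 fold change of -0.41. The eIF2B subunit EIF2B2 had 1025 in SkMel-19 and 715 in Malme3M at 1000 nM, against 1314 and 1019 in DMSO, a log2 fold change of -0.43. EIF2B3 had 1573 in SkMel-19 and 435 in Malme3M at 1000 nM, against 1790.3 and 561 in DMSO, a log2 fold change of -0.27. For these 3 genes the 1000 nM value was below the DMSO value in each line. EIF1AX had 3021 in SkMel-19 and 1313 in Malme3M at 1000 nM, against 3475 and 2025 in DMSO, a log2 fold change of -0.41. The eIF3 subunit EIF3B had 2202 in SkMel-19 and 3489 in Malme3M at 1000 nM, against 2999.6 and 3926 in DMSO, a log2 fold change of -0.31. EIF3D had 4640.2 in SkMel-19 and 3645 in Malme3M at 1000 nM, against 5278 and 4082 in DMSO, a log2 fold change of -0.17. EIF1AX differed more in Malme3M and EIF3B more in SkMel-19.

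The remaining named factors did not pass at 1000 nM either. EIF6 had 2826 in SkMel-19 and 1693 in Malme3M at 1000 nM, against 3471 and 1907 in DMSO, a log2 fold change of -0.23. EIF5A had 5694 in SkMel-19 and 6904 in Malme3M at 1000 nM, against 6619 and 9729 in DMSO, a log2 fold change of -0.36. Both were lower than in DMSO in each line. EIF3A had 4625 in SkMel-19 and 3014 in Malme3M at 1000 nM, against 4549 and 3688 in DMSO, a log2 fold change of -0.13. EIF4EBP1 had 2142 in SkMel-19 and 2258 in Malme3M at 1000 nM, against 2146 and 1828 in DMSO, a log2 fold change of 0.15. EIF4EBP2 had 708 in SkMel-19 and 494 in Malme3M at 1000 nM, against 668 and 466 in DMSO, a log2 fold change of 0.08. EIF3A was close to its DMSO level in SkMel-19 and lower in Malme3M, and EIF4EBP1 was close to it in SkMel-19 and higher in Malme3M. The kinase EIF2AK3 had 354 in SkMel-19 and 658 in Malme3M at 1000 nM, against 247 and 614 in DMSO, a log2 fold change of 0.30. EEF1A2 had 1031 in SkMel-19 and 4236 in Malme3M at 1000 nM, against 841 and 3253 in DMSO, a log2 fold change of 0.33. Both were higher than in DMSO in each line.

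Over all 47 factors at 1000 nM, 23 (48.9%) were lower in both lines, against 31.8% of all genes, and 10 (21.3%) were higher in both, against 41.1% of all genes. The median log2 fold change was -0.07, against 0.04 for all genes. At 250 nM in the same 2 lines 3 of 47 factors (6.38%) were called, all lower, against 11.3% of all genes, of which 5.36% were lower and 5.98% higher. These were EIF4E at -0.66, EIF3J at -0.62 and EIF2S1 at -0.50. Both comparisons use the same DMSO arrays.

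**Figure D5:**
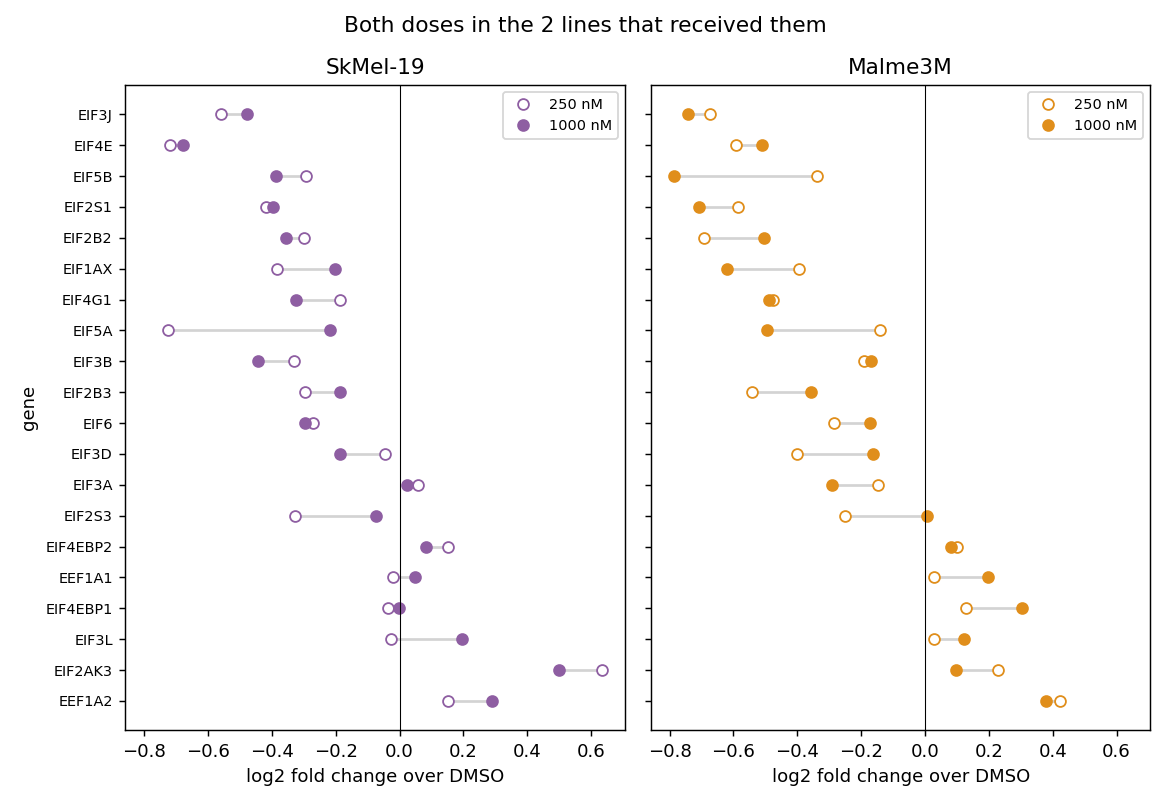
Log2 fold change over DMSO at 250 nM (open) and 1000 nM (filled) of the 20 named factors in SkMel-19 (left) and Malme3M (right). For EIF4E, EIF3J and EIF2S1 the 2 doses lie close together, while EIF5B in Malme3M and EIF5A in both lines lie further apart.

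Between 1000 nM and 250 nM no factor passed limma's test, nor did any of the 7178 genes (0%), and 2 factors had an unadjusted p under 0.05, against 75 of all genes. The smallest adjusted p over all genes was 0.999. EIF2S3 had 5498, 4383 and 5226 in SkMel-19 and 2421, 2032 and 2431 in Malme3M (DMSO, 250 nM and 1000 nM), so that the lower dose lay below both others in each line. Its difference of 1000 nM minus 250 nM was 0.26 on the log2 scale (95% interval 0.08 to 0.43, limma adjusted p = 0.999). EIF3L had 6255, 6135 and 7168 in SkMel-19 and 5592, 5704 and 6087 in Malme3M, a difference of 0.16 (limma adjusted p = 0.999). EEF1A1 had 16164, 15930.3 and 16729 in SkMel-19 and 12798, 13052 and 14681 in Malme3M, a difference of 0.12 (limma adjusted p = 0.999). For EIF4E the difference was 0.06 with an interval of -0.19 to 0.31, so the interval holds differences in both directions.

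Without drug the lines differed far more in some factors than the drug changed any of them. EEF1A2 ranged over 21.7-fold in DMSO, in the rising order SkMel-28, SkMel-19, SkMel-5, SkMel-1 and Malme3M, from 149.7 to 3253. EEF1AKMT3 ranged over 15.5-fold, from 86.9 in SkMel-5 to 1345 in SkMel-1. EIF4A3, a helicase of the exon junction complex, differed 4.98-fold, EIF2S3 4.15-fold, EIF5A 3.74-fold, EIF2AK2 3.63-fold and EIF2B3 3.19-fold between the highest and lowest line. At the other end stood EIF2S1 at 1.06-fold, EIF2B1 at 1.19-fold and EEF1A1 at 1.26-fold. With 1 DMSO array per line there is no test of these differences.

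Genes that work beside the factors were read from lists made with earlier results of these data known. Of all genes tested, 13.1% were lower and 15.2% higher at 250 nM, with a median of 0.03. Of 7 termination, recycling and elongation factors outside the rule, 4 fell and 1 was higher at 250 nM, with a median of -0.30. ABCE1, which splits ribosomes after termination and also binds initiation complexes, fell most, with -0.70 (SE 0.12, adjusted p = 0.00332), and was at -0.73 (SE 0.10, adjusted p = 0.0123) at 1000 nM. The release factors ETF1 (-0.43) and GSPT1 (-0.39) also fell, as did PELO (-0.30), a rescue factor named after its value was seen, while its partner HBS1L rose (0.34). EEF2 was at 0.09 (SE 0.06, adjusted p = 0.302). The calls of HBS1L (without SkMel-1, SkMel-5 or SkMel-28, adjusted p = 0.0585 to 0.0836) and PELO (without any line but SkMel-28, 0.0524 to 0.111) were lost when single lines were left out. Of 4 enzymes that place the hypusine and diphthamide modifications on EIF5A and EEF2, DHPS fell, with -0.28 (SE 0.09, adjusted p = 0.0419), a call lost without any line but SkMel-5 (0.0745 to 0.128).

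Of the 11 genes listed for eIF2 dephosphorylation and for the stress response to eIF2 phosphorylation, 2 rose and 1 fell at 250 nM. The median over the 11 was 0.11. ASNS, asparagine synthetase, rose by 0.90 and DDIT3 (CHOP) by 0.85, while PPP1R15A, which directs the phosphatase to eIF2, fell by 0.45 on the log2 scale. ASNS was higher in 4 of 5 lines, and its changes lay between -0.24 in SkMel-28 and 1.85 in SkMel-19. TRIB3, on the same list, did not pass at 250 nM (-0.56, limma adjusted p = 0.223). It was lower in 4 of 5 lines, with 1.15 in SkMel-1, and was at -0.39 at 1000 nM. The call of ASNS was lost without SkMel-1, SkMel-19 or Malme3M (adjusted p = 0.102 to 0.135) and that of PPP1R15A without SkMel-28 or Malme3M (0.0805 and 0.0850). At 1000 nM, given only to SkMel-19 and Malme3M, 4 of the 11 rose, while 5.29% of all genes tested were higher at that dose. The 4 were CHAC1 (2.09), ASNS (1.82), DDIT3 (1.34) and ATF4 (1.07). ATF4 is the transcription factor made more when eIF2 is phosphorylated. The 250 nM values above are over 5 lines, so the larger values at 1000 nM do not show an effect of dose. In SkMel-19 and Malme3M alone, CHAC1 and ASNS also passed at 250 nM, while DDIT3 and ATF4 were higher without passing. None of these genes passed between 1000 nM and 250 nM. Of 10 mTOR and S6 kinase genes only TSC2 changed, by 0.39, of 10 poly(A) and cap regulators only NCBP2, by -0.32, and of 4 mitochondrial translation factors only MTRF1, by 0.54. The call of TSC2 was also lost without SkMel-28 or SkMel-19 (limma adjusted p = 0.0826 and 0.0891). That of NCBP2 was lost without SkMel-1, SkMel-28 or SkMel-19 (0.0554 to 0.0697). Phosphorylation of eIF2, EIF4E or the 4E-binding proteins was not measured.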

How the data were processed

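The deposited table holds 1 linear intensity per probe set on each of 12 arrays, 22277 probe sets in all, which the authors produced in GCOS, Affymetrix's software, according to the submitters' processing notes. The version, the probe summary and the background step are not given in the sources used here. Labelled cRNA came from 2 µg of total RNA, per the labels' protocols. Each array's mean between its lowest and highest 2% lies between 500.128 and 500.145, so the arrays were compared as deposited.

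Affymetrix's 62 control probe sets were left out. Of the other 22215, 19064 carry 1 gene symbol in the platform annotation, 1043 several and 2108 none. Of those with 1 symbol, 19052 matched the gene table by Entrez ID, with 0 symbols changed. Each gene was read from its probe set with the highest mean, as log2(intensity + 12), with 12 taken from the 20th percentile of the table. Genes whose mean reached the 40th percentile (6.61, an intensity of 85.7) were tested with limma 3.58.1 in R 4.3.3, with a trend in the prior variance, the cell line as a block and Benjamini-Hochberg adjustment over 7178 genes. The 250 nM comparison used 10 arrays, and those with 1000 nM used 6 arrays, from Malme3M and SkMel-19. The labels pair arrays by cell line. With group means removed, the treated and control arrays of a line had correlations of 0.898 to 0.931 over genes, and those of different lines -0.135 or less. With 1 array per line and dose, the number of arrays limits the precision.

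The genes described, their role groups and the lists of related genes were chosen with earlier results of these data known. Values on every array are given for the factors among the 10 largest falls at 250 nM that passed and were lower in all 5 lines, those that passed at 1000 nM, the 3 with the smallest p between doses, and 12 measured genes named whatever their result (EIF4A1 and EIF2AK4, also on that list, were not analysed here). The remaining factors are given by fold change or range. Related genes are named by the size of their change among those that passed, apart from EEF2 and TRIB3, which did not pass. Sequences are RefSeq's (GRCh38.p14), and 37 of the 48 genes matched, 7 of them with several starts, of which the first listed was used. The fit was also run on simulated data with known changes, and the share of them recovered is not given here. Figures were drawn with matplotlib 3.10.9.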

Additional observations from a re-analysis of the deposited data

Results flagged for a closer look

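Groups of 5 values were searched for 1 that stood apart from the other 4 by Dixon's ratio above 0.71, and 4 of 86 groups held one, where chance gives about 1 in 20. EIF3A had a signal of 4732 at 250 nM in SkMel-19, and the other 4 lines lay between 2839 and 3331 at that dose. SkMel-19 was also the highest line in DMSO, at 4549. EIF5B had 2466 at 250 nM in SkMel-28, against 1079 to 1476 in the other lines, and SkMel-28 was again the highest in DMSO, at 3199. EIF3J changed by -0.20 on the log2 scale in SkMel-5 (250 nM over DMSO), and the other lines lay between -0.67 and -0.56. EIF3M changed by 0.12 in SkMel-1, and the other lines lay between -0.39 and -0.30. Without SkMel-1 the fall of EIF3M was -0.34 (limma adjusted p = 0.00831). That line was picked by its opposite sign, so the larger fall without it is no separate support. The call of EIF3M was lost without SkMel-5, SkMel-28, SkMel-19 or Malme3M.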

How the results depend on the processing

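The count of 12 called factors at 250 nM was 7 to 11 when 1 line was left out, 5 of 31 tested without probe sets ending in _x_at or _s_at, and 0 with no replicate block, where the spread between lines enters the error. Centring arrays on their median gave 13 calls and quantile normalization 12, all lower and with the 12 genes among them in both. At 1000 nM the count of 4 was 0 with no replicate block, 2 with no trend in the prior variance and 1 without probe sets ending in _x_at or _s_at. At 250 nM in SkMel-19 and Malme3M the count of 3 was 0 with no replicate block and 1 without those probe sets. A fit of all 12 arrays called 14 at 250 nM. Its change is taken over all 5 lines, so that count cannot be set against the 3. Of 512 values of single genes under the alternatives, 447 kept their direction and side of the threshold, 57 lost the call, 5 gained it and 3 changed sign. The last were EIF2S3 (-0.029 without SkMel-28, 0.21 without SkMel-19), EIF4EBP1 (0.036 without SkMel-28, -0.060 without Malme3M) and EIF2AK3 (-0.048 without SkMel-19, 0.23 without SkMel-5), each given with its lowest and highest value over the lines left out. The calls of EIF4E, EIF3J, EIF2S1, EIF2B2 and EIF4G1 at 250 nM were lost only with no replicate block among the alternatives run for them; EIF3J and EIF4G1 have no probe set left without those ending in _s_at. Apart from the line left out, the probe sets removed and the block, the cause of these differences was not tested. Leaving out a line in the 2-line comparisons was not run, as 1 line leaves no residual degrees of freedom.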
